A study of Mus musculus with 7 samples.

Results

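The miRNAs miR-451, miR-144 and miR-486 are markers of red blood cells, and their levels were taken from quantitative PCR of 3 cultures of M1 macrophages and 4 mouse aortas. They were found by assay name, after the species prefix and the assay number were removed. Of the 3 names, 2 had an assay among the 517 mouse miRNA assays of the table, miR-451 and miR-486. miR-144 is not analysed here. The macrophages were grown for 7 days from bone marrow of C57BL/6 mice in L929-conditioned medium, and were then given LPS (100 ng/ml for 14 hours) and interferon-γ (10 ng/ml for 6 hours). The aortas were untreated controls, and their strain label is apoE-/-, although the series title calls them normal. All mice were female and aged 6 to 8 weeks. Strain, tissue, culture and stimulation all differ between the groups and cannot be told apart. No unstimulated macrophages, blood samples or washed vessels were among the samples, and whether blood was flushed from the aortas cannot be told from the labels. The labels call the samples biological replicates. They do not say whether each came from a different animal, so p-values measure only the spread between these samples.

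Red blood cells lose their nucleus as they mature but carry miRNAs made earlier. miR-451 and miR-144 are cut from a shared primary transcript that the factor GATA1 switches on in the red cell lineage, and miR-451 is among the most abundant miRNAs of whole blood. It is unusual in that Ago2 cuts its short hairpin in place of Dicer, and the mature strand runs on into the loop. miR-486 comes from the gene Ank1, which encodes ankyrin of the red cell membrane skeleton and also has a muscle form, so miR-486 is a miRNA of both red cells and muscle.

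In RefSeq (GRCm38.p6) the hairpin gene Mir451a lies on the plus strand at chr11:78073170-78073241, 99 bases beyond the end of Mir144 (chr11:78073005-78073070). Mir451b is annotated over the same bases as Mir451a on the opposite strand, and the assay is named miR-451 only. Mir486 lies at chr8:23142555-23142682, inside the span of Ank1 (chr8:22974836-23150501). The hairpin of miR-451 is shown because the mature strand, in capitals, takes bases 17 to 38 of 72 and so crosses the middle of the hairpin.
Mir451a hairpin: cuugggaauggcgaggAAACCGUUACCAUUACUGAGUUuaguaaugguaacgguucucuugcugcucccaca

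The mature miR-451 is set beside the other miRNAs that the results turn on, with the seed (bases 2 to 8, which pair with targets) in capitals. They were matched by name to the strand in RefSeq. miR-16 and miR-15b share a seed, and so do miR-92a, miR-25 and miR-363, while miR-451 shares its seed with none of those shown.
miR-451a: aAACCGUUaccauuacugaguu
miR-16-5p: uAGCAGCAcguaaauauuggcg
miR-15b-5p: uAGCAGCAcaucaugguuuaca
miR-92a-3p: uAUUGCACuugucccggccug
miR-25-3p: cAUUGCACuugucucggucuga
miR-363-3p: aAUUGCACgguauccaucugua
miR-23a-3p: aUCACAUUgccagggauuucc

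Each value is a Ct, the cycle of the PCR in which the signal of a well crossed a threshold, so a lower Ct is more target. A well at Ct 35 or earlier counted as detected, and a well that never crossed is listed at 40. The macrophage samples gave less signal, with 326 to 366 miRNAs detected against 416 to 454 in the aortas. Over 296 miRNAs that every sample detected, the mean Ct was 25.4 to 27.8 in macrophages and 22.6 to 24.7 in aortas. The scaled level is that mean Ct minus the Ct of a miRNA, on a log2 scale provided that product doubles per cycle. That efficiency was not measured. Of the 4 white blood cell miRNAs, both strands of miR-142 and miR-223 were higher in every macrophage sample than in any aorta relative to the miRNA mean, and miR-150 of lymphocytes was lower. With no scaling the first 3 did not pass (limma adjusted p = 0.137 for miR-142-3p, 0.312 for miR-142-5p and 0.101 for miR-223). miR-143 and miR-145 of smooth muscle and both strands of miR-126 of endothelium were lower in every macrophage sample than in any aorta. So were 31.5% of the 429 miRNAs tested, on the scaled level. The share of miRNAs with every macrophage sample above every aorta was not counted. In the limma fit of the scaled level, 24.7% of the 429 passed as higher in macrophages.

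miR-451 was abundant in every aorta and near the limit of detection in every macrophage culture. Its Ct was 33.8, 34.0 and 32.2 in macrophages 1 to 3, against 21.1, 20.4, 20.5 and 19.1 in aortas 1 to 4. The nearest samples of the groups lay 11.02 cycles apart. On the scaled level, 31.5% of the 429 miRNAs tested had every macrophage sample under every aorta. Ordered by Ct among the 517 assays, miR-451 was in place 354, 359 and 290 in the macrophages, and in place 101, 46, 94 and 46 in the aortas. A place in that order compares assays of unmeasured efficiency and is a description only.

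On the scaled level miR-451 was at -8.41, -8.50 and -4.39 in the macrophages and at 2.36, 4.32, 2.16 and 4.33 in the aortas. The means were -7.10 ± 2.35 (SD, n = 3) in macrophages and 3.29 ± 1.20 (SD, n = 4) in aortas. miR-451 was thus 1344-fold lower in macrophages, a log2 difference of -10.39 ± 1.16 (SE, limma adjusted p = 0.000261). It had the 8th lowest difference of the 429 miRNAs tested. Of all miRNAs tested, 55.5% passed in either direction and 30.8% passed as lower in macrophages. The difference was -9.74, -9.66 and -11.65 without macrophage 1, 2 and 3, and it ran from -13.03 with no scaling to -8.56 with quantile normalization. In bulk RNA, fewer red cells and less miR-451 per cell cannot be told apart.

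miR-486 was detected in all 4 aortas and did not cross in any macrophage culture. Its Ct was 40 in macrophages 1, 2 and 3, against 30.1, 27.4, 25.4 and 23.4 in aortas 1 to 4. The groups did not overlap, and the aortas themselves spread over 6.71 cycles. Of the 517 miRNAs, 48 (9.28%) had this pattern of detection in every aorta and no macrophage sample. With the macrophage wells set to the limit, miR-486 was at -9.61, -9.55 and -7.23 in macrophages at most, and at -6.62, -2.65, -2.77 and 0.03 in aortas.

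No macrophage value of miR-486 was measured, and it entered the fit through the aortas alone, so no test is read from it. With the macrophage wells at the limit, the fitted difference was -5.80 on the log2 scale. Aorta 1, the lowest, was only 0.62 above the limit of macrophage 3. The size of the difference follows the limit and single samples. It was -8.68 with a limit of Ct 38 and -3.09 with a limit of Ct 32, and it was -7.00, -4.79 and -6.48 without aorta 1, aorta 4 and macrophage 3. With scaling to snoRNA135 and snoRNA202 it was -8.03, and with the authors' deposited values, which keep uncrossed wells at 40, it was -11.79.

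**Figure D1:**
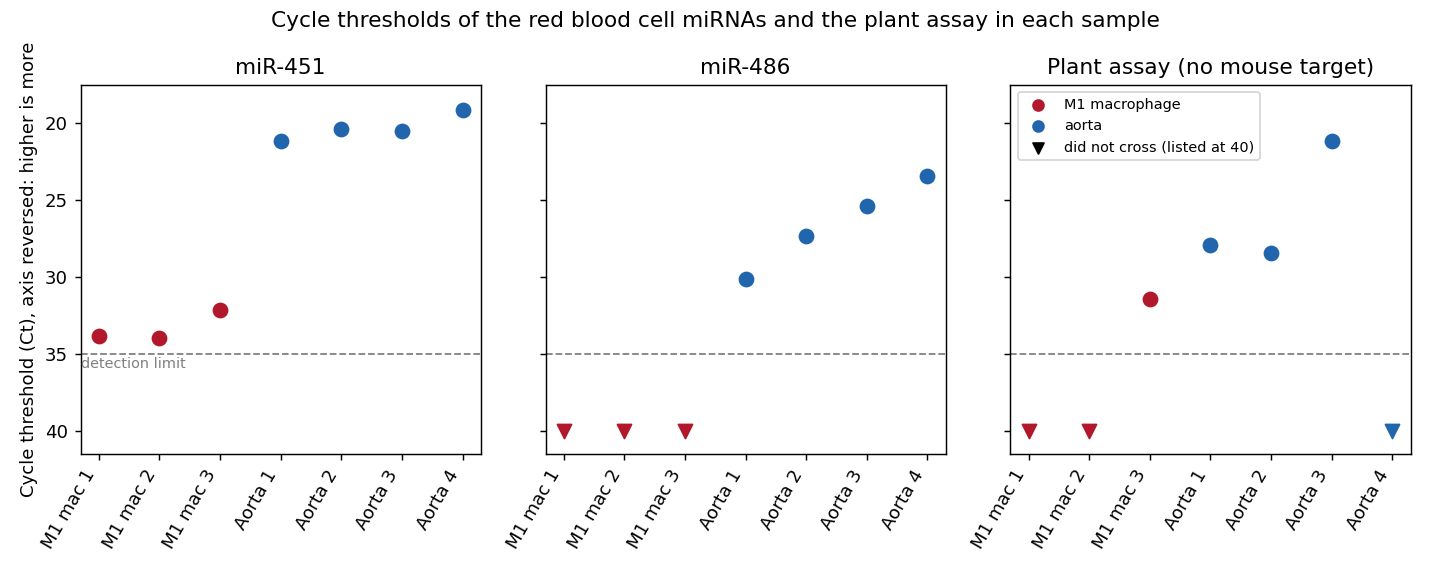
Ct of miR-451, miR-486 and the plant assay (vertical axis, reversed so that more target is higher) in the 3 M1 macrophage samples (red) and 4 aortas (blue); triangles are wells that did not cross and the dashed line is the detection limit of Ct 35. miR-451 lies at Ct 32.2 to 34.0 in macrophages and 19.1 to 21.1 in aortas, miR-486 crosses only in aortas, and the plant assay crosses in macrophage 3 and aortas 1 to 3.

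The panel includes an assay for a plant miRNA with no mouse counterpart, which serves as a blank. It did not cross in macrophages 1 and 2 but crossed at Ct 31.4 in macrophage 3, and it crossed at 27.9, 28.4 and 21.1 in aortas 1, 2 and 3 but not in aorta 4. miR-451 crossed 0.75 cycles later than the plant assay in macrophage 3. It crossed 6.81, 8.04 and 0.66 cycles earlier than the plant assay in aortas 1, 2 and 3.

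miR-486 crossed 2.17 and 4.27 cycles later than the plant assay in aortas 1 and 3, and 1.07 cycles earlier in aorta 2. Only in aorta 4 did miR-486 stand far from the blank, at Ct 23.4 with the plant assay uncrossed. The part of such signal in the results was not tested. In aorta 3, 341 of the 454 detected miRNAs were later than the plant assay, so miR-486 was not alone in this. In macrophages 1 and 2 and aorta 4, where the plant assay did not cross, miR-451 differed by -12.82. With a lone aorta, no test is read from that fit. Without aorta 3 and macrophage 3 together it differed by -12.03 (limma adjusted p = 0.000332). Both of these settings were chosen after seeing the data.

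The residual miR-451 of the macrophages was uneven. Macrophage 3 had the earliest miR-451 well of the 3 cultures although it had the latest mean Ct, and its scaled level was 4.02 above that of macrophage 1 and 4.11 above that of macrophage 2. It was also the culture in which the plant assay crossed. Of the 8 muscle and endothelial miRNAs, miR-143, miR-145, miR-206 and miR-126-3p had their highest scaled level in macrophage 3 among the cultures. miR-1 and miR-126-5p were at their highest in macrophage 2, and miR-133a and miR-133b were detected in none. The order for macrophage 3 depended on the scaling. In Ct it was the latest culture for miR-143 (29.2, 30.8 and 31.1 in macrophages 1 to 3), miR-145 and miR-126-3p. For miR-206 the earliest Ct was in macrophage 1. On the scaled level miR-143 was at -3.76, -5.32 and -3.30 in macrophages 1 to 3, against 10.12 to 10.81 in aortas. miR-1 was at -1.68, 0.42 and -1.14 in macrophages 1 to 3, against 3.70 to 5.78 in aortas. miR-16, abundant in red cells but also in most other cells, was even over the cultures at 6.65, 6.76 and 6.88. What part carried-over red cells, other cells or the blank signal have in the macrophage wells was not tested.

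The difference between miR-451 and a miRNA that red cells hold little of does not depend on scaling, since both are read in the same sample. In serum and plasma miR-451 is set against miR-23a in this way to gauge red cell content. miR-451 minus miR-23a was -11.84, -11.78 and -8.34 in macrophages 1 to 3, against -1.39, 0.18, 0.70 and 1.80 in aortas 1 to 4. Every macrophage value lay below every aorta value, and aortas varied by up to 3.19 among themselves. Of the 429 miRNAs tested, 31.5% had every macrophage sample under every aorta on the scaled level. That share was not counted for differences to miR-23a. The group difference was -10.98 (2-sided exact permutation test over the 35 divisions of the samples, p = 0.0286, the smallest they can give, n = 3 and 4). miR-23a itself did not pass between the groups (0.58 ± 0.70 SE, limma adjusted p = 0.517), and its sign turned with other scalings. In the aortas the smallest value was in aorta 1 and the largest in aorta 4. miR-23a also varied between aortas 1 to 4, at scaled levels of 3.74, 4.14, 1.46 and 2.53. Its SD was 1.22, against 1.20 for miR-451. Aorta 3, at 0.70, was above aortas 1 and 2 by this measure but had the lowest scaled level of miR-451, at 2.16. What part each of these miRNAs or red cell content has in the order of the aortas was not tested.

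Relative to the miRNA mean, most of the other miRNAs known to be abundant in red blood cells were higher in macrophages. Of 8 such miRNAs, all of them also made in many other cells, 6 passed as higher in macrophages and none as lower, while 24.7% of all miRNAs tested passed as higher. Their median log2 difference was 1.67, against -0.21 over all 429. miR-363 was higher by 3.73 ± 0.46 (SE, limma adjusted p = 0.000407), and miR-15b by 2.98 ± 0.47. miR-92a, miR-25, miR-210 and miR-185 were higher by 1.89, 1.67, 1.66 and 1.23.

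miR-16 was at 6.76 ± 0.11 (SD, n = 3) in macrophages and 7.17 ± 0.49 (SD, n = 4) in aortas and did not pass (-0.41 ± 0.41 SE, limma adjusted p = 0.437). miR-107 did not pass either, at -1.49. These calls depended on the scaling: 1 was higher and 2 lower with snoRNA135 and snoRNA202, 2 higher and none lower with MammU6, 2 higher and 1 lower with the authors' deposited values, none higher and 2 lower with no scaling, and 6 higher and none lower with quantile normalization. The higher count was 3 without macrophage 1, macrophage 2, aorta 1 or aorta 3. miR-451 passed as lower under all 5 of these scalings.

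**Figure D2:**
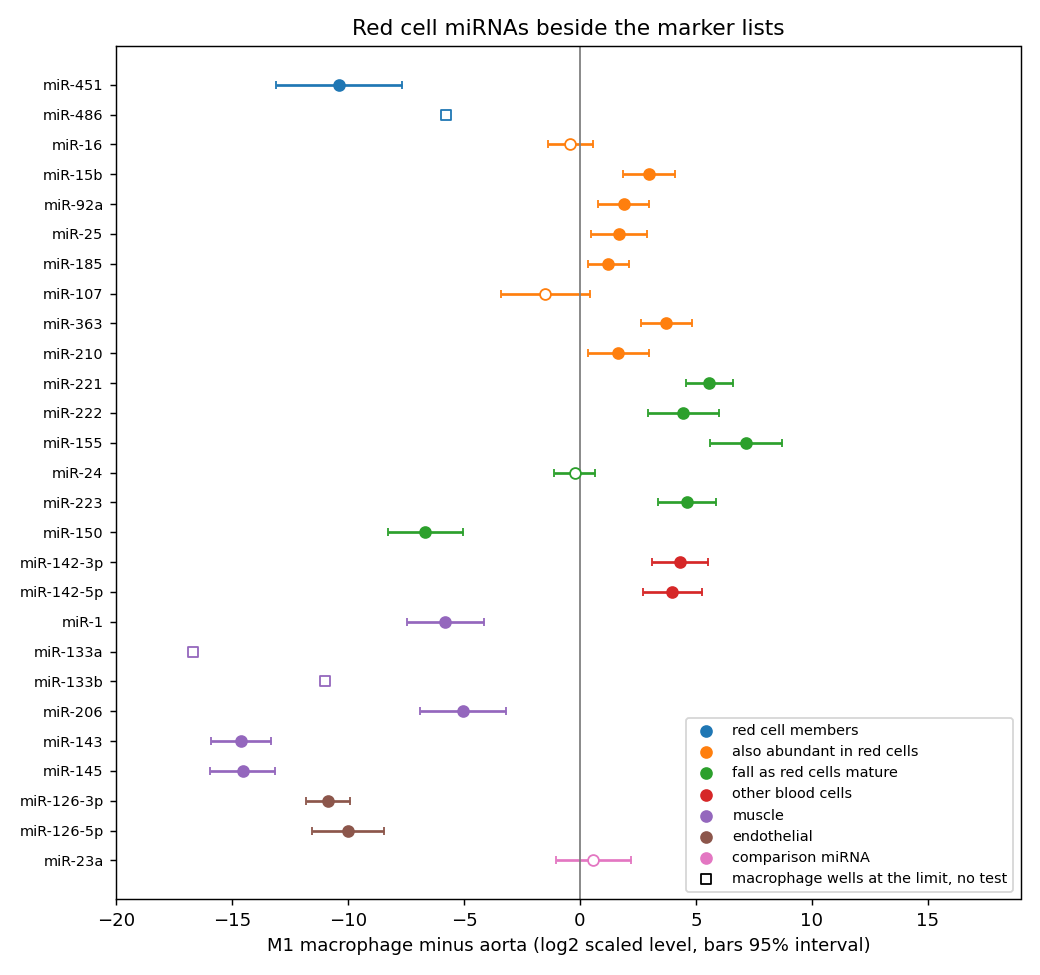
Difference in scaled level, M1 macrophage minus aorta (horizontal axis, log2, bars are 95% intervals), for the red cell members and the miRNAs of the marker lists; filled points passed the adjusted threshold of 0.05. Open squares (miR-486, miR-133a and miR-133b) have macrophage wells set to the limit and carry no interval or test. miR-451 lies left of 0, while 6 of the 8 other miRNAs abundant in red cells lie right of it, relative to the miRNA mean.

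miRNAs whose level falls as red cell precursors mature were mostly higher in macrophages. Of 6, 4 passed as higher (miR-155, miR-221, miR-223 and miR-222, at 7.17, 5.58, 4.62 and 4.46), 1 as lower (miR-150, at -6.67) and miR-24 did not pass (-0.22), while 24.7% of all miRNAs tested passed as higher and 30.8% as lower. Their median was 4.54, against -0.21 over all miRNAs tested. These miRNAs have other uses in macrophages and lymphocytes, and miR-223 and miR-150 are also markers of white blood cells. The higher count stayed at 4 with every other scaling except none, where it was 2. The lower count was 2 with the snoRNA pair and with no scaling, where miR-24 passed as lower (-2.46 and -2.86, limma adjusted p = 0.0035 and 0.025). miR-150, abundant in lymphocytes, had the direction of miR-451, with -1.55, -2.71 and -1.17 in macrophages and 4.17, 4.27, 6.38 and 4.61 in aortas.

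Muscle miRNAs were lower in macrophages. The 4 that every sample detected (miR-1, miR-206, miR-143 and miR-145) passed as lower. In the fit of the 296 miRNAs detected in every sample, 76 passed as lower, and of all 429 tested 30.8% did. The median of these 4 muscle miRNAs was -10.17, against 0.56 over all miRNAs detected in every sample. Both strands of miR-126 passed as lower too. miR-133a and miR-133b, like miR-486, crossed by Ct 35 in no macrophage culture and were found in all 4 aortas, so no test is read from them. In the samples where the plant assay did not cross, miR-143, miR-145, miR-1 and miR-206 differed by -15.38, -14.59, -6.17 and -5.69. Those samples hold a lone aorta, so no test is read from them. miR-1, a miRNA of heart and skeletal muscle, differed by -5.80 ± 0.71 (SE, limma adjusted p = 0.000375). Which cells of the aorta held miR-486 was not tested.

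**Figure D3:**
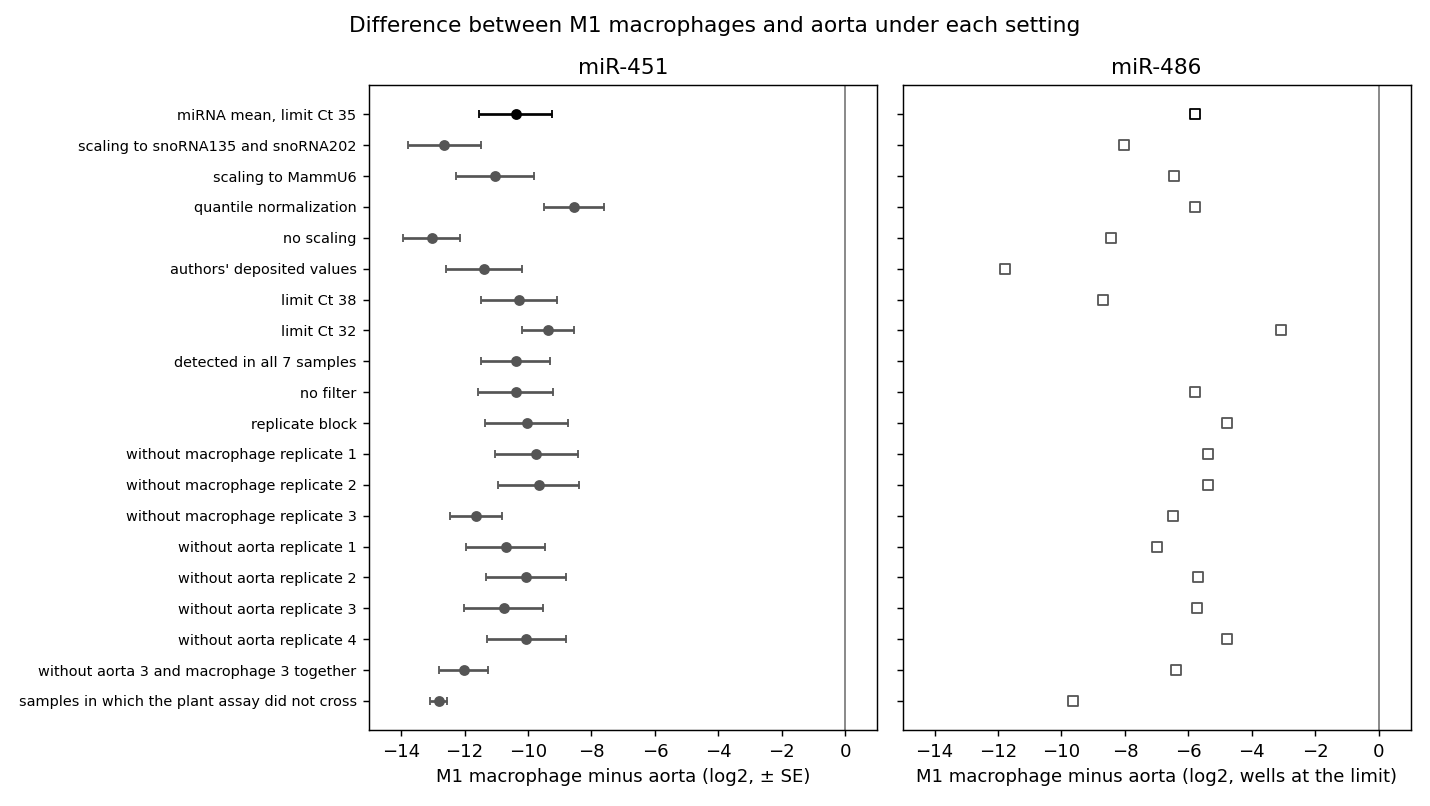
Difference of miR-451 and miR-486, M1 macrophage minus aorta (horizontal axis, log2), under the reported setting (black) and each other setting; bars for miR-451 are SE, and its filled points passed the adjusted threshold of 0.05. Squares for miR-486 have macrophage wells set to the limit (to 40 in the deposited values) and carry no error or test. The samples in which the plant assay did not cross hold a lone aorta, so no test is read from that point. miR-451 lies between -13.03 and -8.56 throughout, and miR-486 between -11.79 and -3.09.

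Between the aortas, miR-486 had a wider spread than miR-451. The scaled level of miR-486 had an SD of 2.74 over the 4 aortas, larger than that of 379 of the 386 miRNAs detected in all 4, whose median SD was 0.61. The SD of miR-451 was 1.20, larger than that of 317. In aortas 1 and 3 miR-486 crossed later than the plant assay, and the part of such signal in this spread was not tested. The SD of miR-486 was larger than that of 337 to 383 of the 386 with the 5 other scalings, and for miR-451 the count ran from 89 with MammU6 to 319 with the snoRNA pair.

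The members did not keep a fixed ratio. miR-451 minus miR-486 was 8.97, 6.97, 4.93 and 4.30 in aortas 1 to 4, with a mean of 6.29 ± 2.12 (SD, n = 4). The values spread over 4.68 cycles, and this difference is free of scaling. Aorta 4 was at the top for both members in Ct, and aorta 1 at the bottom. Aortas 2 and 4 had almost the same scaled level of miR-451, at 4.32 and 4.33, yet differed by 2.68 in miR-486. With 4 aortas no correlation was computed.

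miR-451 kept closer to miR-16. miR-451 minus miR-16 was -4.47, -3.26, -4.52 and -3.28 in aortas 1 to 4, with an SD of 0.71, and -15.06, -15.27 and -11.27 in macrophages 1 to 3. Aortas 2 and 4 held more of both than aortas 1 and 3, relative to the miRNA mean. Of the 8 other miRNAs abundant in red cells, 5 (miR-16, miR-15b, miR-92a, miR-25 and miR-210) had aortas 2 and 4 both above aortas 1 and 3, as did 15.5% of the 386 miRNAs detected in all 4 aortas. This division was chosen after the values were seen. It depended on the scaling, with 4 of 8 (12.7% of all) for the snoRNA pair, 6 of 8 (18.7%) for quantile normalization, 2 of 8 (3.63%) for the deposited values, and none for MammU6 (0.518%) or no scaling (1.04%).

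**Figure D4:**
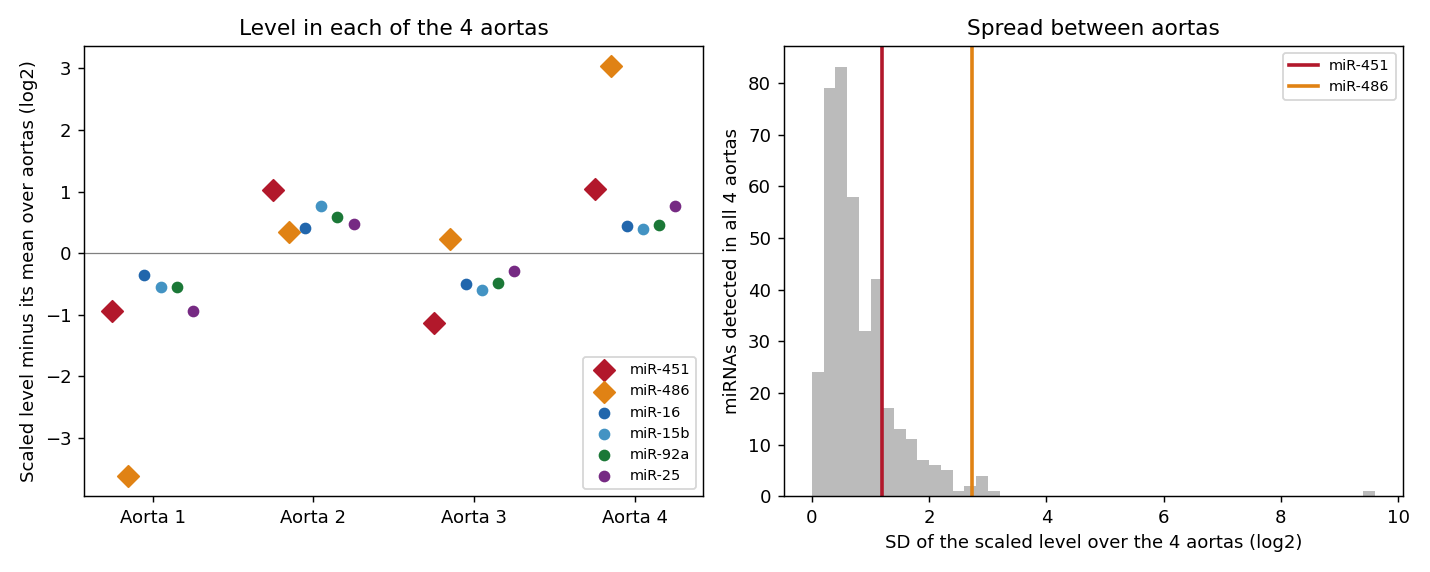
Left, scaled level minus its mean over the aortas (log2) in each of the 4 aortas for miR-451 and miR-486 (diamonds) and 4 other miRNAs abundant in red cells (circles); right, the SD over the aortas for the 386 miRNAs detected in all 4, with vertical lines at 1.20 for miR-451 and 2.74 for miR-486. miR-451 and the other 4 are higher in aortas 2 and 4 than in aortas 1 and 3 relative to the miRNA mean, and of the 6 shown miR-486 spreads most.

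The likeness of other miRNAs to the members was measured as the root mean square difference between profiles centred on their own means, in log2 units. Over the 4 aortas, the profiles most like that of miR-451 among 385 were those of miR-297a* (0.32), miR-715 (0.40), miR-465a-5p (0.43), miR-15b (0.48) and miR-29c (0.51). Of the other miRNAs abundant in red cells, miR-25, miR-92a and miR-16 stood in places 6, 7 and 10. The rest of that list, miR-210, miR-363, miR-185 and miR-107, stood in places 53, 72, 81 and 259. miR-486 was in place 331, and the white cell miRNAs miR-142-3p, miR-223 and miR-150 were in places 86, 176 and 314. Over all 7 samples the nearest of 428 were miR-224 (0.82), miR-193b (0.89), miR-434-3p (0.93), miR-133b (1.08) and miR-485* (1.11), all of them much lower in macrophages, with miR-486 in place 47. Of the 5, 3 (miR-224, miR-133b and miR-485*) were undetected in every macrophage culture.

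The distances to miR-486 cannot be set against those to miR-451, because the measure is not adjusted for the spread of each profile. The SD over the aortas was 2.74 for miR-486 and 1.20 for miR-451. Over all 7 samples the nearest to miR-486 were miR-1 (1.67), miR-136 (1.86), miR-337-5p (1.87), miR-199b* (1.89) and miR-150 (1.90), with miR-451 in place 87. In that profile every macrophage value of miR-486 is the limit and not a measured value, so these places depend on the limit. miR-136 was likewise undetected in every macrophage culture. Over the 4 aortas the nearest profiles were miR-764-5p (0.62), miR-207 (0.73), miR-704 (0.77), miR-881* (0.83) and miR-680 (1.502), with miR-1 in place 16 and miR-451 in place 29. Each of those nearest over the aortas was detected in every macrophage culture, unlike miR-486. miR-764-5p was at -6.87, -4.00, -2.82 and -1.40 in aortas 1 to 4, the lowest in aorta 1 and the highest in aorta 4, as for miR-486. The part of blank signal in this order was not tested.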

How the data were processed

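The authors' deposited raw table holds cycle thresholds and their second deposited table holds log2-scale values (Ct differences). The latter equalled each Ct minus a constant per sample, from the values themselves. No source used here gives the instrument, threshold or preamplification. Columns were matched to samples by name. Wells later than Ct 35 were set to 35. The scaled level is the mean Ct of 296 miRNAs that every sample detected, minus the Ct. The 429 miRNAs that 3 or more samples of a group detected were fitted together with limma 3.58.1 (lmFit, eBayes, group only) in R 4.3.3, with Benjamini-Hochberg adjustment and a threshold of 0.05. A miRNA that no macrophage sample detected, miR-486 included, is given by its fitted difference alone, although a test was planned for it. The fit was tested on 20 simulated sets, with 510 miRNAs tested on average. It recovered 6.4%, 23.6%, 76.8% and 90.5% of changes of 1, 2, 4 and 8 on the log2 scale, and 4.24% of its calls were false. Small differences that did not pass may therefore have been missed. The simulated sets had independent normal noise and no blank signal, and more miRNAs were tested than the 429 here. The simulated shares, that of false calls included, may therefore not hold for the real calls. Tables and plots used Python 3.11.15, pandas 2.3.3, numpy 2.4.6 and matplotlib 3.10.9. The 7 samples limit the precision.

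The members, lists, tests and alternatives were chosen with earlier results of these data known. Named miRNAs are the members, the 25 other measured miRNAs of the lists (red cell, red cell maturation, other blood cells, muscle, endothelial and miR-23a) and the 5 nearest profiles of each member over 7 samples and over 4 aortas. No other strand of a member's hairpin was on the panel. Alternatives were 5 scalings, limits of Ct 38 and 32, filters, a replicate block and leaving out each sample.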

Additional observations from a re-analysis of the deposited data

How the results depend on the processing

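miR-451 passed in every setting that left more than 1 sample in each group. miR-486, which has no measured macrophage value, moved to -3.09 with a limit of Ct 32. Requiring detection in all 7 samples left miR-486 untested. miR-451 minus miR-23a ran from -12.14 to -10.38 when 1 sample was left out, where the smallest exact permutation p is 0.0667 or 0.1, above the threshold by construction. Same-numbered samples correlated at 0.11, 0.01 and -0.07 in their deviations, so the numbers were not taken as pairs. With the replicate block the differences were -10.05 for miR-451, -4.78 for miR-486 and -10.49 for miR-451 minus miR-23a, and 212 of 429 miRNAs passed, against 238 without it. In the 3 samples where the plant assay did not cross, 150 of 433 miRNAs and 12 of the 25 list miRNAs passed, against 21 of 25, with fewer samples. For the list miRNAs, 357 of 425 values over the alternatives kept direction and call. Signs turned with the snoRNA pair for miR-185 (-1.01), miR-210 (-0.58), miR-23a (-1.65), miR-25 (-0.57) and miR-92a (-0.35), and with no scaling for the same miRNAs (-1.41, -0.98, -2.06, -0.97 and -0.75). They also turned for miR-23a with MammU6 (-0.072), the deposited values (-0.41) and without aorta 3 and macrophage 3 (-0.020), and with quantile normalization for miR-16 (0.11) and miR-24 (1.05). None of these turned values passed the threshold, and the cause was not tested. The split of all calls was 106 higher and 132 lower, against 32 and 231 with the snoRNA pair, 52 and 124 with MammU6, 147 and 118 with quantile normalization, 53 and 155 with the deposited values, and 10 and 207 with no scaling. The median difference over all miRNAs was -0.21, and -2.45, -0.86, 0.41, -1.40 and -2.85 in those settings.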

Other observations

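White blood cell miRNAs did not order the aortas as miR-451 did. On the scaled level miR-223 was at 4.79, 5.16, 3.68 and 3.65 in aortas 1 to 4. miR-142-3p was at 3.48, 3.94, 2.72 and 2.96, so that aortas 1 and 2 were the highest for both. The other strand, miR-142-5p, was at -3.86, -3.73, -2.55 and -3.07, with aortas 3 and 4 the highest. With no scaling, aortas 1 and 3 were the highest for miR-223 and miR-142-3p. miR-150 was highest in aorta 3, at 6.38, the aorta with the lowest scaled level of miR-451. miR-451 minus miR-223 was -2.43, -0.85, -1.52 and 0.68 in aortas 1 to 4 and -17.02, -17.97 and -13.15 in macrophages 1 to 3. These values are free of scaling. They are descriptions of 4 vessels with no test.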
